A study of Homo sapiens with 2 samples.

Results

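The paired box (PAX) genes followed here are PAX2, PAX3, PAX5, PAX6, PAX7 and PAX8, the 6 members of the family that were chosen for this description, out of 33694 gene rows measured. They were found by symbol in the gene rows of both count tables. The 9 PAX genes of the family were all among the rows. PAX1, PAX4 and PAX9 had 1, 1 and 1 UMI in the day 10 library and 0, 5 and 1 UMIs in the day 15 library, and were not followed further. A UMI (unique molecular identifier) is the tag that marks 1 captured RNA molecule.

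The cells came from H9, an established human embryonic stem cell line, with no genetic change or added compound compared between the stages. The day 10 library was made from an adherent culture on Geltrex during enteric neural crest induction, a protocol whose last medium contains retinoic acid. The day 15 library was made from free-floating enteric crestospheres, spheres that form when the crest monolayer is detached and kept in suspension in a medium with FGF2 and CHIR 99021, an activator of WNT signalling. There was 1 library per stage. Per the series' design text the cells of 2 biological repeats were put together in each library, and the cell tables used here do not assign cells to repeats. Stage, culture format, medium, sequencing depth and library therefore cannot be told apart. No test between the stages was possible, and every interval given here covers counting error only.

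PAX proteins are transcription factors that bind DNA through the paired domain, and they mark territories of the early embryo. PAX3 and PAX7 are sister genes of the dorsal neural tube, the neural crest and the muscle lineage. PAX6 is the factor of the eye field, the forebrain, the lens and olfactory placodes and part of the ventral neural tube. PAX2, PAX5 and PAX8 are another group of sister genes, used at the midbrain-hindbrain boundary and in the otic and epibranchial region, and PAX5 is also the identity factor of B cells. Among the genes that act with or after PAX3 are SOX10, RET and MITF. Loss of PAX3 leads to pigment defects in people and mice, and to enteric nervous system defects in mice. In a crest culture the members therefore read out which neighbouring ectodermal territories are present.

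Short stretches of the paired box are shown because they show how closely the members resemble each other in coding sequence. Each is the same 75 coding bases of the paired box, 5′ to 3′ on the gene's own strand, taken from the GRCh38 genome with GENCODE annotation. Capitals mark bases that differ from PAX3.
PAX3: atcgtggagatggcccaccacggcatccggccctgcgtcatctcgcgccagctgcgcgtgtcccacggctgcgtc
PAX7: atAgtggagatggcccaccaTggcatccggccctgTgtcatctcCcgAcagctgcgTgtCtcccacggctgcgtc
PAX2: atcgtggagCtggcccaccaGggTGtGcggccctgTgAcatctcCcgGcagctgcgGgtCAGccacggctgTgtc
PAX5: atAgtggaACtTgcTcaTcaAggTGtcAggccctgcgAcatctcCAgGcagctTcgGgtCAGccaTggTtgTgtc
PAX8: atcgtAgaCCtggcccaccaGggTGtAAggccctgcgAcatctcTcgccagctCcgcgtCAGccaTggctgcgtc
PAX6: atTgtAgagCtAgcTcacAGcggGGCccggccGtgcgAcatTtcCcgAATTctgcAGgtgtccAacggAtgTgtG

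These stretches lie in exon 2 of PAX3 (chr2:222297050-222297124, minus strand), PAX7 (chr1:18634392-18634466, plus strand), PAX2 (chr10:100749823-100749897, plus strand) and PAX5 (chr9:37020653-37020727, minus strand), and in exon 3 of PAX8 (chr2:113246771-113246845, minus strand). In PAX6 the stretch crosses a splice junction and starts in exon 5 (chr11:31801759-31802760, minus strand, intron included). PAX7 differed from PAX3 at 7 of the 75 bases and was 90.7% identical. PAX2 differed from PAX3 at 14, PAX8 at 15, PAX5 at 22 and PAX6 at 24 bases. Within the other group of sisters PAX2 and PAX8 differed at 11 bases, PAX2 and PAX5 at 13 and PAX5 and PAX8 at 15.

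The chemistry read the 3′ ends of transcripts, so the paired box itself lay outside the region mostly counted. No 31-base word of the last 500 transcript bases of any member was found, on the same strand, in another PAX gene. Reads of PAX3 and PAX7 were therefore separable at their ends, although the coding sequences of these 2 genes share an exact run of 33 bases. Other overlaps did touch the ends. All 470 such words at the end of PAX6 occur on the opposite strand of ELP4, an Elongator subunit gene whose 3′ end runs into that of PAX6. At the end of PAX8, 179 of 470 words occur on the opposite strand of PAX8-AS1. The strand setting of the authors' counting is not given in the sources used here, so reads of these antisense partners could not be told apart by that setting.

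The whole genes lie at chr2:222199888-222298996 (PAX3), chr1:18631006-18748866 (PAX7), chr11:31784779-31818062 (PAX6), chr10:100735603-100829941 (PAX2), chr9:36833275-37034185 (PAX5) and chr2:113215997-113278950 (PAX8). PAX3 and PAX8 share a chromosome and are not neighbours on it.

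There were 9627 cells and 70488169 UMIs at day 10, and 6320 cells and 84976253 UMIs at day 15. The median was 6713 and 11770.5 UMIs per cell. The authors marked 2332 cells at day 10 and 984 at day 15 as filtered for low quality, and these are called removed cells here. The study's quality limits include upper bounds on genes and UMIs per cell, and a lower bound on genes. The removed cells were shallower than the kept cells at day 10, with a median of 3679 against 7101 UMIs. They were deeper at day 15, with 21367 against 11089 UMIs and 3948.5 against 2541 genes. The 2 libraries shared 102 cell barcodes. Classes are those deposited by the authors: at day 10 enteric neural crest cells (ENCC, 4921 kept cells), neuro-epithelial progenitors (NEP, 1811), cranial placode (CP, 324) and non-neural ectoderm (NNE, 239), and at day 15 ENCC (4934), CP1 (208), NEP (104), mesenchymal cells (Mes, 47) and CP2 (43). ENCC were split by the authors into ENCC 1 to 4 at day 10 and ENCC 1′ to 4′ at day 15. A further 256 and 27 ENCC lay outside these subclusters. The deposited subtype label of these cells is Non-NC, and NC stands for neural crest in the study. The authors named NEP with WNT2B and PAX6 as markers. Their annotation genes for progenitors, a class name the study uses at a later stage, include PAX3 and PAX7. Whether those genes served to name the day 10 or day 15 classes is not stated. The classes were made from the same cells, so levels by class are descriptions. The ENCC markers summed to 2033 CPM in day 10 ENCC and 1128 in day 15 ENCC, the NNE markers to 5333 in NNE, and the mesenchymal markers to 232 in Mes beside 3.69 in ENCC. Markers of pluripotent cells summed to 107 and 66.0 CPM in ENCC, of which the highest marker alone made up 106 and 65.5 CPM.

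Levels are CPM, the UMIs of a gene in a class scaled to the total UMIs of the same cells, with an exact Poisson 95% interval. They were not set between genes, since 3′ counting captures genes unequally. Shares of cells were read after each cell was thinned to 3000 UMIs, which left out 586 shallower cells at day 10 and 0 at day 15, with exact Clopper-Pearson intervals. Ratios are log2 of CPM + 1, which understates the change of low genes, and a gene was compared and could be called only with at least 20 UMIs in 1 of the 2 groups. A gene was called higher or lower from 2-fold on this scale. Folds are ratios of CPM with no pseudocount.

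PAX3, the crest and dorsal neural tube factor, was found in every class. At day 10 it was highest in NEP, somewhat lower in the placode class and the ENCC subclusters, and low in NNE. The level was 89.5 CPM [84.6-94.6] in NEP, from 1256 UMIs, and 65.0 CPM [62.4-67.6] in ENCC, from 2400 UMIs. The placode class had 71.4 CPM [61.3-82.7], from 179 UMIs. NNE had 8.12 CPM [4.55-13.4], from 15 UMIs.

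Within ENCC at day 10 the PAX3 level ran from 54.3 CPM [45.1-64.8] in ENCC 3 through 60.2 [55.0-65.8] in ENCC 2 and 65.9 [53.0-80.9] in ENCC 4 to 66.7 [63.4-70.1] in ENCC 1. The ENCC outside the subclusters had 74.2 CPM [63.4-86.4]. In the order of levels from NEP down to ENCC 3, each class overlapped the next in its interval, and the first step that did not overlap was the step to NNE. The interval of NEP itself overlapped that of the cells outside the subclusters and not those of CP or of ENCC 1 to 4. PAX3 was 1.38-fold higher in NEP than in ENCC (interval 1.29-1.47), below the 2-fold limit, and 8.0-fold lower in NNE than in ENCC (4.84-14.3). PAX3 and PAX6 were 2 of 3 members compared that were called lower in NNE, beside 7.77% of all genes lower and 11.6% higher. For PAX6, the ENCC outside the subclusters held 1031 of the 1263 UMIs of ENCC. PAX6 was 8.67 CPM [4.95-14.1] in NNE and 6.40 [5.41-7.52] in ENCC 1, so it was not lower in NNE than in ENCC 1.

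The share of day 10 cells with a PAX3 UMI gave the same picture. It was 23.8% in NEP (428 of 1798 cells), 18.9% in CP, 17.6% in ENCC 1, 15.4% in ENCC 2 and 14.1% in ENCC 3. NNE, used here as the class with least PAX3, had a UMI in 1.28% (3 of 235 cells), at a median depth of 7349 UMIs against 7227 in NEP. Few cells held many molecules, with 3 or more PAX3 UMIs in 13 of 1798 NEP cells and 5 of 4919 ENCC. The unthinned share in ENCC was 36.8%.

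In the crestospheres the PAX3 level was lower in ENCC and lower still in both placode clusters. ENCC had 29.5 CPM [28.0-30.9], from 1645 UMIs, and 7.58% of ENCC had a PAX3 UMI (26.7% unthinned). NEP had 36.6 CPM [26.4-49.5], from 42 UMIs. CP1 had 4.19 CPM [2.01-7.70], from 10 UMIs, CP2 4.98 [0.603-18.0], from 2, and Mes 7.13 [1.94-18.3], from 4.

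The placode classes of the 2 stages thus differed in PAX3. The day 10 CP level lay near that of ENCC (log2 ratio 0.13). Against all ENCC 0 of 3 members compared were called, beside 4.99% of all genes higher and 3.22% lower. PAX6, not called there, was 63.8 CPM [54.3-74.5] in CP, 34.2 in all ENCC and 6.40 [5.41-7.52] in ENCC 1. The day 15 CP1 level of PAX3 was 7.04-fold lower than ENCC (3.82-14.7), a log2 ratio of -2.55. PAX3 and PAX7 were the 2 members compared and both were called lower in CP1, beside 7.46% of all genes lower and 12.9% higher. In Mes PAX3 was called lower as well, 1 of 2 compared, beside 11.6% lower and 7.91% higher. Markers of ENCC moved with this difference: the summed level of 6 ENCC markers was 1133 CPM in day 10 CP and 169 CPM in day 15 CP1, beside 2033 and 1128 CPM in the ENCC of the same libraries. Their part in the PAX3 level of the placode classes was not tested.

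Among the crestosphere subclusters PAX3 was highest in ENCC 4′. It had 54.1 CPM [43.0-67.1], from 82 UMIs in 138 cells, against 32.9 [29.1-37.1] in ENCC 3′, 28.1 [25.8-30.6] in ENCC 1′ and 28.1 [26.1-30.1] in ENCC 2′. The interval of ENCC 4′ did not overlap those of ENCC 1′, 2′ and 3′. PAX3 in ENCC 4′ was 1.92-fold higher than in ENCC 1′ (1.51-2.43) and 1.64-fold higher than in ENCC 3′ (1.27-2.11), both below the 2-fold limit. No member compared passed it among these subclusters, where 2.14% of all genes were called higher and 15.1% lower in ENCC 4′ than in ENCC 1′, 3.76% and 15.2% in ENCC 4′ than in ENCC 3′, and 0.957% and 2.22% in ENCC 3′ than in ENCC 1′. The share of cells with a PAX3 UMI followed, with 18.1% in ENCC 4′, 9.08% in ENCC 3′, 7.33% in ENCC 1′ and 6.60% in ENCC 2′. MITF, the master regulator of the pigment lineage and a known PAX3 target, was also highest in ENCC 4′ at 116 CPM. It was 83.7 in ENCC 3′, 45.2 in ENCC 1′ and 25.3 in ENCC 2′. Between the stages it went the other way from PAX3, from 19.1 CPM in day 10 ENCC to 43.2 in day 15 ENCC. In day 10 NEP, where PAX3 was highest, MITF was 18.9 CPM.

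PAX3 has a divergent neighbour, CCDC140, which lies on the plus strand at chr2:222298147-222305217 and overlaps the 5′ start of PAX3 by 850 bases. The choice of members did not use it. At day 10 CCDC140 made up 39.2% [37.1-41.3] of the UMIs of both genes in NEP (810 of CCDC140 and 1256 of PAX3), and 19.8% [18.0-21.6] in ENCC 1 (378 and 1532). NEP therefore differed from ENCC more in CCDC140, 3.33-fold, than in PAX3. The cells outside the ENCC subclusters were intermediate, at 31.3%.

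At day 15 CCDC140 made up 17.7% [14.9-20.9] in ENCC 1′, 17.3% in ENCC 2′ and 16.9% in ENCC 3′. In ENCC 4′, the subcluster with most PAX3, it made up 1.2% [0.0305-6.53], with a single CCDC140 UMI beside 82 of PAX3. The level of CCDC140 was 9.18-fold lower in ENCC 4′ than in ENCC 1′ (1.62-366), so the ratio rests on a single molecule and has a wide interval. At the level of cells, CCDC140 was found in 17.1% [13.6-21.0] of NEP cells with a PAX3 UMI and in 9.12% [7.65-10.8] of those without, whereas in day 10 ENCC the shares were 4.85% and 4.42%.

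**Figure D1:**
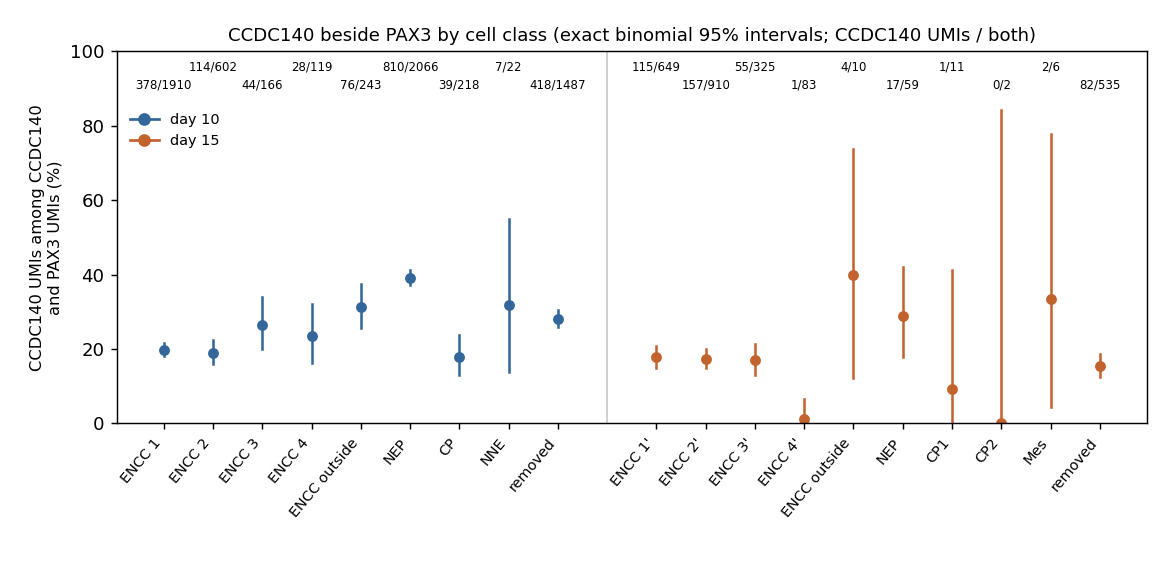
Share of CCDC140 UMIs among the UMIs of CCDC140 and PAX3 (%, vertical axis) in each deposited class at day 10 (blue) and day 15 (orange), with exact binomial 95% intervals and the counts written above. Day 10 NEP stands at 39.2%, above ENCC 1 at 19.8%, and ENCC 4′ at 1.2% stands below ENCC 1′ at 17.7%.

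PAX7, the sister of PAX3, was low in every class, and at day 10 its classes could not be separated. ENCC had 3.30 CPM [2.74-3.94], from 122 UMIs, NEP 2.92 [2.10-3.96], from 41, CP 3.19, from 8, and NNE 2.71, from 5. The share of cells with a UMI was 1.06% in ENCC and 1.11% in NEP. Every interval overlapped that of the next class in order, NNE included, so PAX7 was read as a like low level across the classes, not as expression in a particular one.

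At day 15 PAX7 stayed at 2.95 CPM [2.52-3.44] in ENCC, from 165 UMIs in 1.01% of cells. CP1 had 1 UMI and 0.419 CPM [0.0106-2.33], below the ENCC interval, a ratio of 7.06-fold with an interval of 1.25-280. Within ENCC the level was 3.63 CPM [2.83-4.60] in ENCC 1′, 2.94 in ENCC 2′, 2.64 in ENCC 4′ and 1.34 [0.670-2.40] in ENCC 3′. PAX7 was 2.71-fold lower in ENCC 3′ than in ENCC 1′ (1.42-5.67), while PAX3 was 1.17-fold higher there (1.01-1.36). On the log2(CPM + 1) scale the PAX7 difference was -0.98, just under the limit. PAX7 was detected in 6 of 846 day 10 ENCC with a PAX3 UMI (0.709%, against 1.13% of those without), and in 1 of 374 at day 15 (0.267%, against 1.07%). In day 10 NEP the order was the other way, with 8 of 428 (1.87%) against 0.876%. The intervals overlapped in each of these pairs, so no relation between the sisters in single cells was detectable at this depth.

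PAX6, the eye field and forebrain factor, was split sharply between classes. At day 10 NEP had 572 CPM [559-584], from 8028 UMIs, and 71.9% of NEP cells had a PAX6 UMI (1293 of 1798, 84.5% unthinned). ENCC as a whole had 34.2 CPM [32.3-36.1], from 1263 UMIs, a 16.7-fold difference (15.8-17.8). PAX6 and PAX8 were the 2 of 4 members compared that were called higher in NEP than in ENCC, where 15.2% of all genes were called higher and 2.67% lower.

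The ENCC value was made by few cells. The 256 ENCC outside the subclusters held 1031 of the 1263 UMIs and had 458 CPM [431-487], which is 80.1% of the NEP level, with a PAX6 UMI in 63.8% of cells. ENCC 1 had 6.40 CPM [5.41-7.52], ENCC 2 6.78 [5.11-8.83], ENCC 3 11.1 [7.20-16.4] and ENCC 4 3.62 [1.18-8.45]. Against ENCC 1 alone, PAX6 was 89.3-fold higher in NEP (75.9-106) and 71.6-fold higher outside the subclusters. In the first comparison 17.9% of all genes were called higher and 3.1% lower, with PAX6 and PAX8 the 2 of 4 members called, and in the second 12.4% and 3%, with PAX6 the 1 of 3.

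Other NEP genes were checked in the same way. In ENCC 1 PAX6 stood at 1.12% of its NEP level, WNT2B at 1.22%, TRPM3 at 1.27% and SIX6 at 0.796%. In NNE PAX6 stood at 1.52% and WNT2B at 1.83%. OTX2, another gene of the eye field list, stood at 11.3% in ENCC 1 and 11.9% in NNE. The percentage of PAX6 in ENCC 1 was thus near those of WNT2B, TRPM3 and SIX6 and below that of OTX2. In ENCC 3 PAX6 stood at 1.95% and WNT2B at 1.45%, with 25 PAX6 UMIs in all. Whether the PAX6 UMIs of these classes came from the cells themselves was not tested.

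The cells outside the subclusters stood at 78.5% of the NEP level for WNT2B, 63.1% for TRPM3 and 81.3% for SIX6. Their summed ENCC markers were 557 CPM, between 2178 in ENCC 1 and 212 in NEP. Their summed NEP markers without PAX6 were 865 CPM, beside 1157 in NEP and 34.4 in ENCC 1. WNT2B alone made up 827 CPM of the sum in NEP. In the cells outside the subclusters the CP markers summed to 11.6 CPM, beside 748 in CP and 18.4 in ENCC. The study's supplementary methods state that a cluster of day 10 crest cells was dropped from subclustering for its placode genes, and do not say whether it is this group. PAX3 separated the groups far less, with ENCC 1 at 74.6% of the NEP level and the cells outside at 83.0%.

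PAX6 was also carried by many molecules per cell in NEP. After thinning, 516 of 1798 NEP cells (28.7%) had 3 or more PAX6 UMIs, as did 37 of 254 cells outside the subclusters (14.6%) and 0 of 3001 ENCC 1 cells. In the placode class 39 of 324 cells had any PAX6 UMI, and 5 cells held 68 of the 160 UMIs. The CP level of 63.8 CPM [54.3-74.5] therefore rested on a minority of cells, and 16 cells with 3 or more UMIs held 83.8% of it.

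Within NEP, PAX3 and PAX6 did not separate into different cells. PAX6 was found in 73.8% [69.4-77.9] of NEP cells with a PAX3 UMI (316 of 428) and in 71.3% [68.8-73.7] of those without (977 of 1370).

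**Figure D2:**
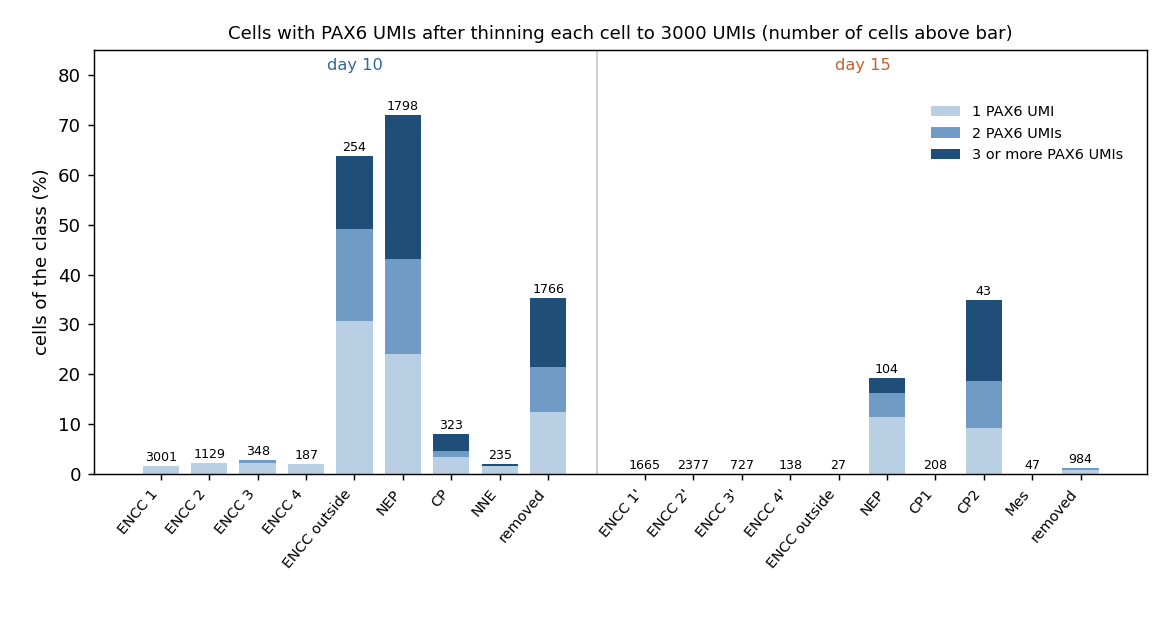
Share of cells (%, vertical axis) with 1, 2 or at least 3 PAX6 UMIs after each cell was thinned to 3000 UMIs, by deposited class and for removed cells, with the number of cells above each bar. At day 10 NEP reaches 71.9% and the ENCC outside the subclusters 63.8%, while at day 15 CP2 reaches 34.9% and NEP 19.2%.

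In the crestospheres PAX6 was found in few cells. CP2 had 381 CPM [323-446], from 153 UMIs in 20 of its 43 cells, and NEP had 112 CPM [93.9-134], from 129 UMIs in 48 of its 104 cells. ENCC had 11 UMIs in all, or 0.197 CPM [0.098-0.352]. CP1, Mes, ENCC 1′ and ENCC 4′ had 0 UMIs. PAX6 was thus 571-fold higher in NEP than in ENCC (309-1172) and 1932-fold higher in CP2 (1050-3953). It was the 1 of 3 members compared that was called higher in NEP, beside 18% of all genes higher and 7.57% lower. In CP2 PAX6 was called higher and PAX3 and PAX7 lower, beside 27% of all genes higher and 18% lower. PAX7 had 0 UMIs in CP2, where the upper bound of 9.18 CPM lies above the ENCC level, so a difference of PAX7 was not detectable at this depth.

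The 2 placode clusters differed in PAX6, with 153 UMIs in CP2 and 0 in the larger CP1. In CP2 16 cells with 3 or more UMIs held 96.1% of the PAX6 UMIs. The names of the classes are given as deposited, and their markers differed. The summed CP markers were 1222 CPM in CP1 and 323 in CP2, and the summed neuronal markers were 1941 in CP1 and 4214 in CP2, of which STMN2 alone made up 3304. In the day 15 NEP class the NNE markers summed to 927 CPM and the NEP markers without PAX6 to 181, against 1299 and 1157 in day 10 NEP. ELP4, the antisense neighbour of PAX6, did not follow PAX6 between CP1 and CP2, with 24 UMIs beside 0 of PAX6 in CP1 and 4 beside 153 in CP2. In NEP it was higher along with PAX6, 2.21-fold over ENCC 1 at day 10 (1.90-2.57) and 2.44-fold over ENCC at day 15 (1.53-3.71). In day 10 CP it was 0.816-fold of ENCC (0.541-1.19). In the whole library ELP4 was 2.19-fold lower at day 15 (1.99-2.40), the direction of PAX6. The part of antisense reads in either gene was not tested.

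**Figure D3:**
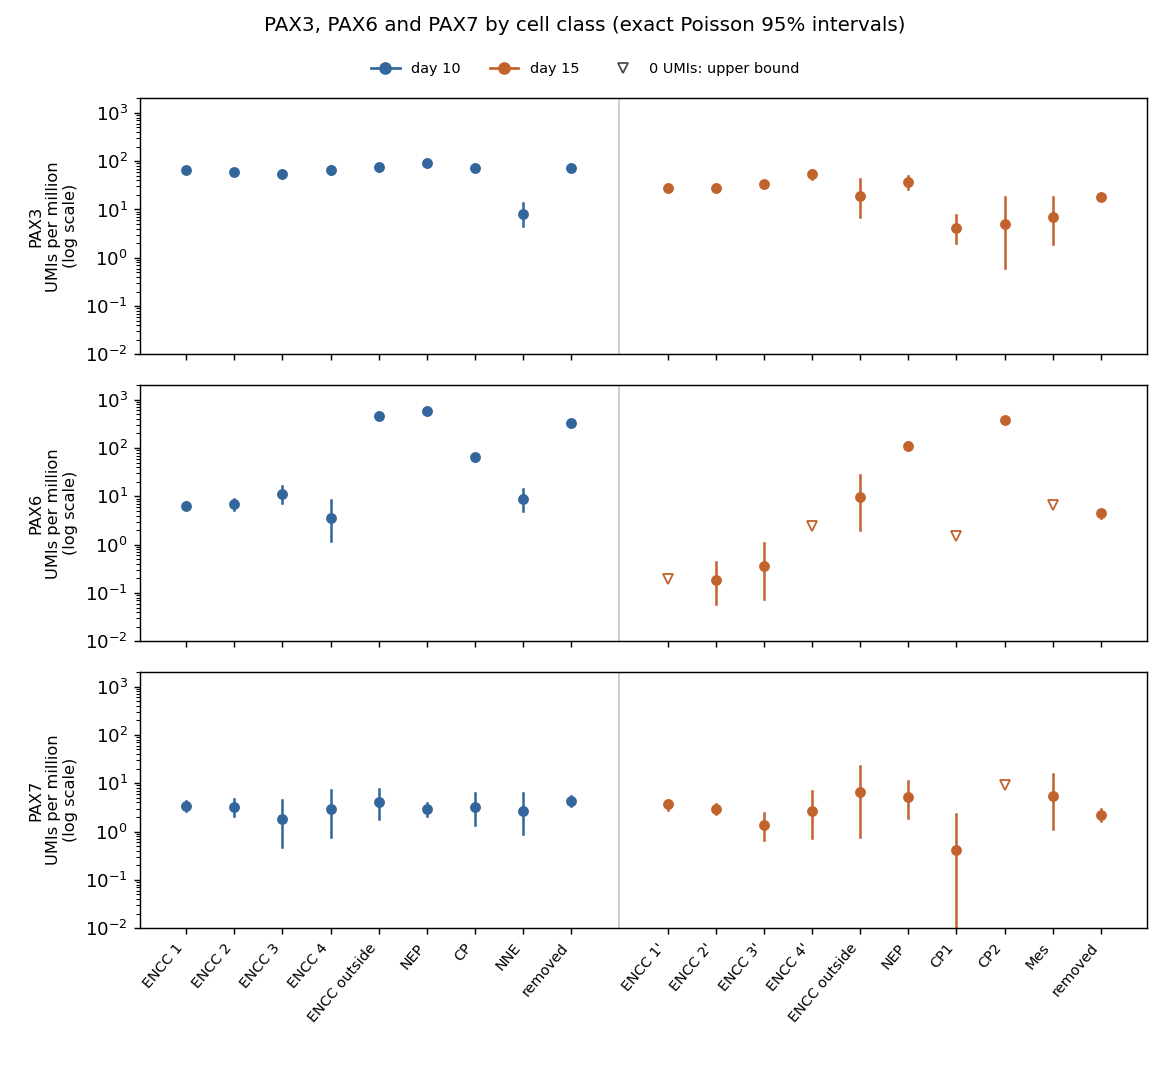
Levels of PAX3, PAX6 and PAX7 in CPM (log axis) in each deposited class at day 10 and day 15, with exact Poisson 95% intervals, open triangles marking the upper bound where a class had 0 UMIs. PAX3 falls to 8.12 CPM in day 10 NNE and to 4.19 CPM in day 15 CP1, PAX6 peaks at 572 CPM in day 10 NEP and 381 CPM in CP2, and PAX7 stays below 7 CPM in each class with a UMI.

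PAX2, PAX5 and PAX8, the midbrain-hindbrain and otic group, were rare. NEP held most of the PAX8 and PAX2 UMIs of kept cells, and PAX5 lay mostly in removed cells. PAX8 was found in day 10 NEP, with 33 UMIs in 32 cells and 2.35 CPM [1.62-3.30]. ENCC had 13 PAX8 UMIs and 0.352 CPM, of which 6 lay in the cells outside the subclusters (2.67 CPM [0.979-5.81]), and CP and NNE had 0. PAX8 was 6.68-fold higher in NEP than in ENCC (3.42-13.8) and was called higher, at a log2 ratio of 1.31. At day 15 the library held 7 PAX8 UMIs, 4 of them in 2 NEP cells.

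PAX2 was found in the day 15 classes that also held PAX6. NEP had 10 UMIs in 8 cells, or 8.72 CPM [4.18-16.0], and CP2 had 7 UMIs in 4 cells, or 17.4 CPM [7.0-35.9]. No PAX2 UMI was seen in ENCC of either stage, and the Poisson interval there ends at 0.0998 CPM in the earlier and 0.0661 CPM in the later library. The intervals of NEP and CP2 did not overlap that of ENCC, though with fewer than 20 UMIs PAX2 was not among the genes compared. In CP2 after thinning, PAX2 was found in 2 of 15 cells with a PAX6 UMI and in 0 of 28 without. The day 10 library held 5 PAX2 UMIs, 3 of them in NEP.

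PAX5 was seen mainly in the crestosphere library, with 168 UMIs against 5 at day 10. Among kept cells CP1 had 14 UMIs in 14 cells, or 5.86 CPM [3.20-9.83], which was 20.5-fold higher than the 0.286 CPM in ENCC (9.25-44.7). With 14 and 16 UMIs this pair was below the minimum for a comparison, so the ratio is not a call. CP2 and Mes had 0 PAX5 UMIs and NEP 3. Most PAX5 lay in the removed cells, which had 135 UMIs in 97 cells and 5.48 CPM [4.60-6.49]. They held 80.4% of the PAX5 UMIs of the library and 29% of all its UMIs. These removed cells carried placode and neuronal markers, with 503 CPM summed over the CP markers and 796 CPM over the neuronal markers, beside 12.3 and 25.4 CPM in ENCC.

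**Figure D4:**
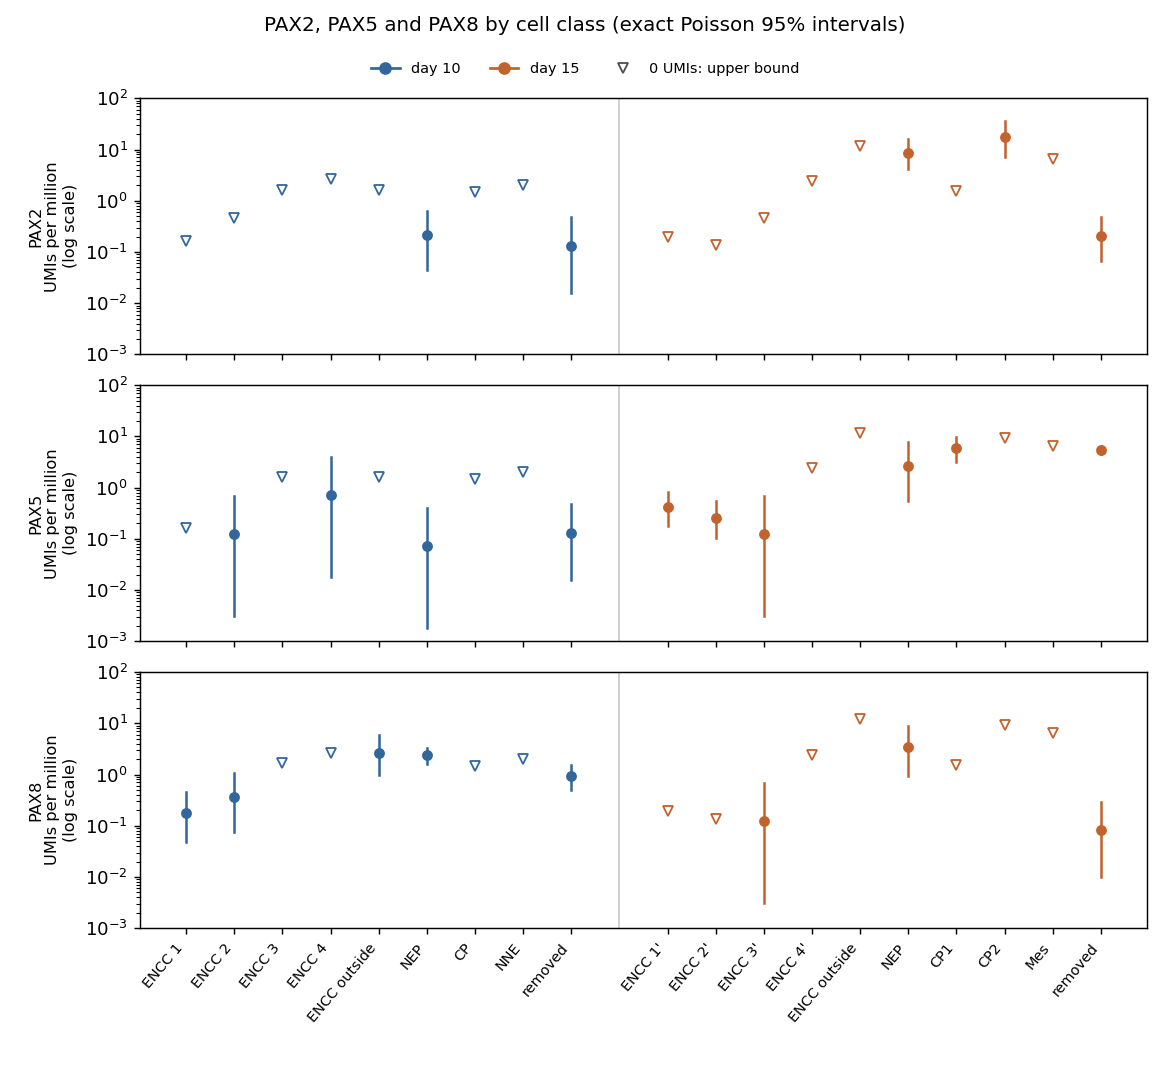
Levels of PAX2, PAX5 and PAX8 in CPM (log axis) by deposited class at day 10 and day 15, with exact Poisson 95% intervals and open triangles for the upper bound at 0 UMIs. PAX8 rises above ENCC in day 10 NEP (2.35 CPM), PAX2 in day 15 NEP (8.72 CPM) and CP2 (17.4 CPM), and PAX5 in day 15 CP1 (5.86 CPM) and in the removed cells (5.48 CPM).

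The question of how the members differed between the crest monolayer and the crestospheres was asked for the whole library and for ENCC alone. In the whole library PAX6 went from 206 to 4.73 CPM, a 43.5-fold lower level (39.4-48.1), and PAX3 from 69.8 to 25.4 CPM, 2.75-fold lower (2.61-2.89). PAX5 was 27.9-fold higher (11.7-87.0). In all 2 of the 6 members were called lower and 1 higher, where 8.42% of all genes compared were called lower and 7.06% higher. PAX7 had a log2 ratio of -0.25 [-0.45 to -0.05], PAX8 one of -0.77 and PAX2 one of 0.23, none of them called. As folds PAX8 was 10.3-fold lower (4.72-26.8) and PAX2 3.65-fold higher (1.35-12.3), from 60 and 7 UMIs of PAX8 and 5 and 22 of PAX2.

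The call of PAX5 rested on the removed cells. Over kept cells alone its log2 ratio was 0.55, not past the limit, with 6.21% of genes called higher. The fold without the pseudocount was still 10.1 (3.16-51.4). The whole-library log2 ratio of PAX5 was 0.83 without the 6% of cells with most UMIs in each library. PAX3 and PAX6 were called lower over kept cells as well, at -1.27 and -4.88, where 9.06% of genes were called lower.

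In ENCC, PAX3 went from 65.0 to 29.5 CPM, 2.21-fold lower (2.07-2.35). On the log2(CPM + 1) scale this was -1.11 [-1.20 to -1.03], where the median over all genes compared was -0.12. PAX3 and PAX6 were 2 of 3 members compared that were called lower, beside 5.96% of all genes lower and 6.89% higher. The call was lost with TMM scaling, at -0.97, which raises the ENCC ratio of CPM by 0.15 (log2) before the pseudocount. PAX7 was level, at -0.12 [-0.38 to 0.14]. PAX6 was 174-fold lower in ENCC (96.7-349), but most of its day 10 UMIs lay outside the subclusters. Within the numbered subclusters its log2 ratio was -2.75.

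The mix of cells also changed, with ENCC making up 66.8% of the UMIs of kept cells at day 10 and 92.5% at day 15. Had ENCC and all other classes kept their day 10 levels at the day 15 mix, the kept cells would have had 66.0 CPM of PAX3 and 64.9 CPM of PAX6. The levels found were 28.2 and 4.86 CPM, down from 69.6 and 171. The computed PAX3 level thus lay near its day 10 value, and that of PAX6 lay between its values at the 2 stages. The make-up within ENCC and within the other cells was held as at day 10. NEP went from 25.4% to 1.9% of the UMIs of kept cells, and ENCC outside the subclusters from 4.06% to 0.514%. The part of these shifts in the PAX6 level was not computed. The number of cells of a type and the RNA per cell are not separable in such sums.

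**Figure D5:**
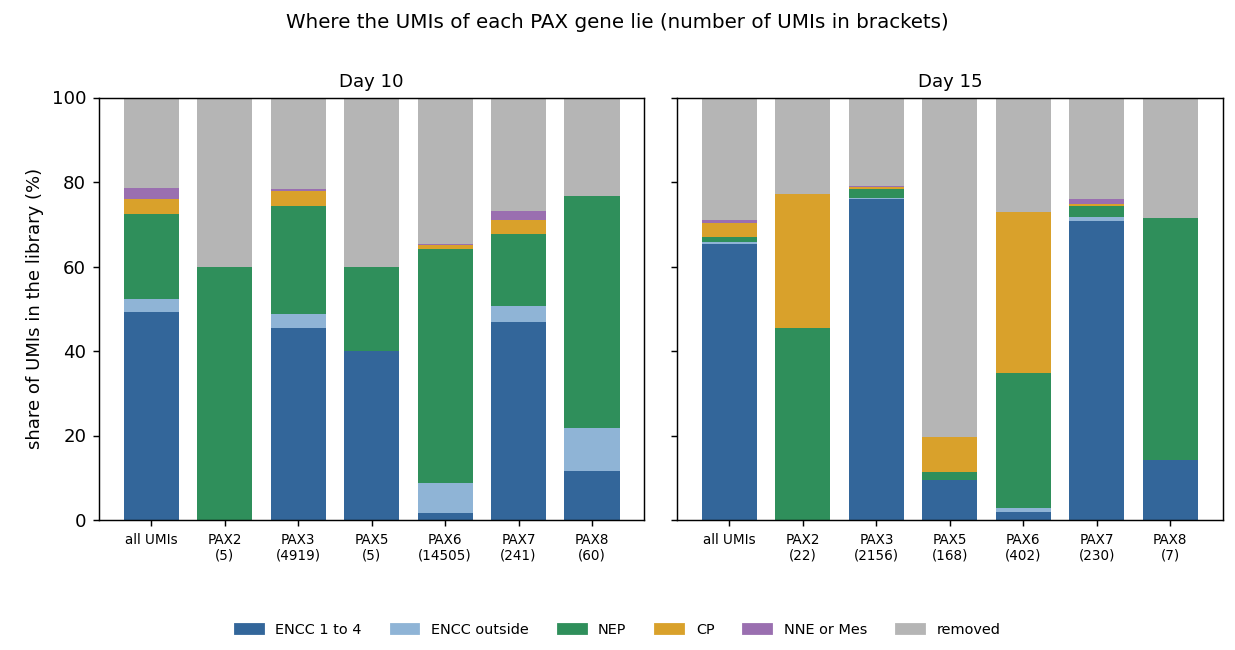
Share (%) of each member's UMIs in each group of classes, removed cells included, in the day 10 and the day 15 library. At day 10 NEP holds 55.3% of PAX6 and 55% of PAX8, and at day 15 ENCC hold 76.3% of PAX3 and removed cells 80.4% of PAX5.

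Where the molecules of each member lay changed accordingly. At day 10 ENCC held 48.8% of the PAX3 UMIs with 52.4% of all UMIs, and NEP 25.5% with 19.9%. NEP held 55.3% of the PAX6 UMIs and removed cells 34.7%. At day 15 ENCC held 76.3% of PAX3 with 65.7% of all UMIs, whereas NEP held 32.1% of PAX6 with 1.35% of all UMIs and CP2 38.1% with 0.473%.

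The genes that work with the PAX proteins were described by lists. In day 10 NEP against ENCC, 6 of 8 compared genes of the eye field and forebrain list were higher and 0 lower, with a median log2 ratio of 1.81. Over all genes the median was 0.19, and 15.2% were higher and 2.67% lower, against which the counts of each list in NEP are to be read. The higher genes included WNT2B (4.03), SIX6 (3.46), OTX2 (2.53) and FEZF2 (1.93). WNT2B was itself a marker by which the authors named NEP. Of the defining eye field genes LHX2 had 0 UMIs in NEP and RAX 2. Of the SIX-EYA-DACH network, the partners of PAX genes in placodes and eye, 2 of 9 were higher and 0 lower, SIX6 and DACH1 (2.21), and the median was 0.18.

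Of the midbrain-hindbrain and otic list 4 of 8 were higher in NEP and 0 lower, with a median of 0.82, led by GATA3 (3.40) and GATA2 (2.08). The boundary ligands WNT1 and FGF8 had 0 UMIs in NEP. GATA2 and GATA3 are also genes of the non-neural ectoderm, and the NNE markers summed to 1299 CPM in NEP and 102 in ENCC, and their part was not tested. Of the crest regulators 3 of 16 were higher and 8 lower, with a median of -1.30. TFAP2B (-3.52) and NGFR (-3.48) were lower, while ZIC1 (3.51) and MSX1 (3.34), which also mark the border of the neural plate, were higher. Of the PAX cofactors 1 of 11 was higher and 0 lower, with a median of -0.33. That gene was TLE4, a Groucho co-repressor, at 84.2 CPM in NEP and 18.6 in ENCC.

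In ENCC between day 15 and day 10, 5 of 15 compared crest regulators were lower and 2 higher, with a median of -0.21. Over all genes compared in ENCC the median was -0.12, and 6.89% were higher and 5.96% lower. MSX2 (-2.39) and TFAP2B (-1.48) were lower with PAX3, and SOX9 (1.86) and MITF (1.14) were higher. MSX2 was 54.7 CPM in day 10 NEP and 5.17 in day 10 ENCC. The part of the cells outside the subclusters in the MSX2 ratio was not tested. The eye field list had 3 of 6 genes lower and 0 higher, with a median of -1.15, led by WNT2B, which went from 49.6 to 2.54 CPM. These are also genes of the cells outside the subclusters.

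Of the SIX-EYA-DACH network 3 of 9 were lower and 1 higher, with a median of -0.47. SIX4 (-1.42), SIX6 (-1.36) and DACH1 (-1.30) were the lower genes. Of the 58 SIX6 UMIs of day 10 ENCC, 50 lay in the cells outside the subclusters. Of the midbrain-hindbrain and otic list 2 of 6 were lower and 1 higher, with a median of 0.04, among them GATA3 (-2.94) and SPRY2 (1.07). Of the PAX cofactors 4 of 12 were higher and 0 lower, with a median of 0.14. These 4 were AES (1.81), TLE2 (1.46), PAXBP1 (1.12), which links PAX3 and PAX7 to a histone methyltransferase complex, and WDR5 (1.06), a subunit of such complexes.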

How the data were processed

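Single-cell 3′ libraries (10x Genomics v3.1) of H9 cultures at day 10 and day 15 were analysed, 1 per stage. The authors' deposited tables hold raw UMI counts per gene and cell, with a table of cell types, subtypes, cell cycle phases and the percent of mitochondrial counts per cell, which the authors computed before deposit and which was used here for description only. The submitters' processing notes name GRCh38, Cell Ranger and Seurat 4.0.4, and the study's methods name kallisto/bustools. The annotation and strand setting are not given in the sources used here.

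UMIs were summed per class and divided by the class total (CPM). With 1 library per stage no test was run. Genes with at least 20 UMIs in 1 of 2 groups were compared as log2(CPM + 1), called from 2-fold. Removed cells were also assigned to the most similar kept class. No doublet caller was run, and whether the authors removed doublets beyond hashtag demultiplexing is not given in the sources used here. Depth was 70488169 and 84976253 UMIs, so a gene at 0 UMIs in a library could reach 0.0426 and 0.0353 CPM (3 counts). Scripts were tested on simulated data. Alternatives were edgeR 4.0.16 TMM scaling (R 4.3.3), other pseudocounts, per-cell means, depth limits, other thinning and other gene filters.

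Members and lists were chosen with earlier results of these data known. The genes named are the 6 members, PAX1, PAX4 and PAX9, the 4 genes of each list with the largest absolute ratio, and the 5 genes most like each member with at least 100 UMIs. This minimum was counted over both libraries with removed cells included, and PAX5 passed it only with those cells. CCDC140, ELP4, PAX8-AS1, the NEP genes set beside PAX6 and the list genes at or near 0 were chosen after values were seen. The choice of MITF was also made after values were seen. Some genes that the rule would name are not reported here. Sequences were read from GRCh38 with GENCODE annotation. Python 3.11.15, numpy 2.4.6, scipy 1.17.1, pandas 2.3.3 and matplotlib 3.10.9 were used.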

Additional observations from a re-analysis of the deposited data

Results flagged for a closer look

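The removed cells enter none of the class comparisons. They held PAX6 at day 10 and PAX5 at day 15 above the level of all kept cells. Some groups of them held PAX6 above the matching kept class. At day 10 the removed cells had PAX6 at 333 CPM, against 171 CPM in all kept cells, with a PAX6 UMI in 35.2% of cells after thinning. The 1262 removed cells closest to ENCC had 30.4 CPM [26.0-35.4], beside 34.2 in kept ENCC. Of the removed cells 880 were closest to NEP and had 589 CPM, beside 572 in kept NEP. The 69 closest to CP had 101 PAX6 UMIs in 11 cells and 299.9 CPM [244.3-364], against 63.8 CPM in kept CP. The 121 closest to NNE had 28 PAX6 UMIs and 22.1 CPM, against 8.67 in kept NNE.

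At day 15 the removed cells had PAX5 at 5.48 CPM, against 0.547 CPM in all kept cells. Of the removed cells, 342 with a median depth of 26632 UMIs were closest to CP1. They had 129 PAX5 UMIs in 92 cells, or 11.7 CPM [9.75-13.9]. Kept CP1 had 5.86 CPM [3.20-9.83], an interval that overlaps. At 3000 UMIs per cell the share with a PAX5 UMI was 4.39% [2.48-7.13] against 2.40% [0.785-5.52] in kept CP1, and these intervals overlap as well. The 561 removed cells closest to ENCC had 19 PAX6 UMIs in 7 cells and 1.58 CPM [0.948-2.46], against 0.197 in kept ENCC. PAX3 in the same cells was 30.8 CPM, near the 29.5 CPM of kept ENCC. The part of cell quality or of doublets in these values was not tested.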

How the results depend on the processing

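No ratio changed direction under any alternative. Of 66 stage ratios under an alternative, 39 moved by less than the counting interval and 27 by more. TMM scaling raised the ratio of CPM by 0.19 (log2) in the whole library and by 0.15 in ENCC, less for low genes once the pseudocount was added, and gave PAX3 -1.24 and PAX6 -5.0 in the whole library and PAX3 -0.97 in ENCC. With a pseudocount of 0.1 the whole-library ratios were 1.07 for PAX2, 3.60 for PAX5, -5.41 for PAX6 and -2.38 for PAX8, so PAX2 and PAX8 passed the limit there, and with 5 they were 0.053, 0.46, -4.44 and -0.20, with PAX3 at -1.30. In ENCC PAX6 was -6.85 and -2.91 with these pseudocounts, and PAX3 -1.02 with 5. Means of each cell's own CPM gave PAX5 1.00 and PAX6 -4.84. Without the 6% deepest cells PAX3 was -1.34, PAX5 0.83 and PAX6 -4.97, and over kept cells -1.27, 0.55 and -4.88. PAX6 in ENCC was -2.75 within the numbered subclusters. With ENCC 1 as the base, chosen after seeing the data, PAX6 in NEP was 6.27 and not 4.03.

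Of 57 levels 3 moved, all of PAX6 at day 10, by the mean of each cell's own CPM: ENCC 29.9, NEP 587 and CP 80.5 CPM. Of 16 shares of cells 13 moved, by construction of the thinning or the minimum. PAX3 in ENCC was 27.2% at day 10 and 12.9% at day 15 at 5000 UMIs, and 1.81% and 0.385% at 2 or more UMIs. PAX6 in day 10 NEP was 80.5% and 47.9%, and in day 15 NEP 7.69% at 2 or more UMIs. The 8 list counts stayed within 1.5 times under both alternatives. No paired analysis was possible because each stage has 1 library. Depth limits PAX2, PAX5, PAX7 and PAX8, whose class levels rest on few UMIs, and intervals do not cover the spread between cultures.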

Other observations

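Over the 16 classes with at least 30 cells, the genes whose log2(CPM + 1) pattern was most like that of a member were listed by Pearson r, as a description, since classes of 1 library share its depth and preparation. For PAX3 they were CA14 (0.93), MAP3K15 (0.90), RP11-11N9.4 (0.87), ENPP2 (0.86) and PCDH7 (0.86). For PAX6 they were RP11-96L14.7 and MAB21L2 (both 0.95) and AAGAB, FILIP1 and SNAPC5 (each 0.94). For PAX7 they were SMAD3 (0.90), EFNA4 (0.88), ZFP36L1 (0.87), CHD1 (0.87) and FZD7 (0.86). For PAX5 they were GALNT14 (0.85), STK38L (0.83), POR, SOS2 and TMEM50B (each 0.82). The classes hold kept cells only, which had 3 PAX5 UMIs at day 10 and 33 at day 15. Day 10 CP and NNE and day 15 CP2 and Mes were among the classes with 0 PAX5 UMIs. The PAX5 list therefore rests on counts near 0, and no likeness is concluded from it.

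By deposited cell cycle phase, PAX3 in day 10 NEP was 99.0 CPM [92.7-106] in G1, 56.8 CPM [47.8-67.1] in S phase and 85.8 CPM in G2M, and PAX6 in the same cells 608, 448 and 558 CPM. In day 10 ENCC PAX3 was 66.7 CPM in G1, 59.4 CPM [55.1-64.0] in S phase and 68.5 CPM in G2M. In day 15 ENCC it was 30.5, 26.1 and 33.6 CPM in G1, S and G2M.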
